A study of Mus musculus with 8 samples.

Results

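The response of the TFII-I β line to doxycycline was measured on 4 of the 8 arrays of the series, 2 with doxycycline (titles TFII-I-βmt_Doxycycline+) and 2 without (TFII-I-βmt_Doxycycline-). The cells were TEC100.4, an immortalized mouse line whose labelled origin is the thymic cortex, and the labels give overexpression of a mutant of TFII-I, here its β isoform, for the arrays with doxycycline. The promoter and vector of the construct are not given in the sources used here. Cells of this line were kept for 24 h with or without the drug. A second line with the δ isoform of the mutant, treated in the same way on the other 4 arrays, served to estimate the spread and as a comparison. The genotype label of the untreated arrays names the wild type protein and that of the treated arrays overexpression of the mutant, while the titles of both name the mutant line, and groups were taken from the titles. Each line is a single line in the labels, no line without a mutant was analysed here, and the labels do not state whether replicate arrays stem from different cultures. The p-values therefore measure how far these samples vary, possibly for technical reasons only. Effects of the drug and of the mutant protein that the labels name as overexpressed cannot be told apart.

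TFII-I, the product of Gtf2i, is a transcription factor that binds initiator and E-box elements of promoters and shuttles between cytoplasm and nucleus in response to growth factor signals. Its isoforms arise by alternative splicing, and the β and δ isoforms have been described as acting in opposite ways on the immediate early gene Fos. A recurrent mutation of GTF2I marks indolent human thymic epithelial tumours. Thymic cortical epithelial cells normally present self peptides to developing thymocytes and express keratins of simple epithelia, the transcription factor Foxn1 and the Notch ligand Dll4.

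To be tested, a gene needed a probe that the scanner software called well above background on 2 of 2 arrays with doxycycline or on 2 of 2 without, and its brightest such probe stood for it. This held for 18538 genes, of which 17492 were measured in both groups, 556 only with doxycycline, 2 only without it and 488 in 1 group fully and on 1 array of the other. Levels are log2 signals relative to the 75th percentile of each array, and a log2 fold change is the mean with doxycycline minus the mean without, given with its standard error (n = 2 and 2). Genes are said to rise or fall where limma gave a Benjamini-Hochberg adjusted p under 0.05 over all 18538 genes.

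The markers of the line matched its labelled origin only in part. Of 12 markers of cortical thymic epithelium 10 were measured. Krt8 and Krt18 read 3.89 and 4.13, and 3.25 and 3.14, on the untreated arrays, and the protease gene Ctsl 5.77 and 6.02. Foxn1 was close to the dimmest signals, at -4.56 and -4.87, and the thymoproteasome gene Psmb11 was not measured. Of the general epithelial markers, Epcam and Cdh1 were not measured. Fibroblast markers were bright on the same arrays, with Col1a1 at 7.27 and 7.45 and Dcn at 6.92 and 6.88. No cortical or fibroblast marker passed limma (at an unadjusted p under 0.05, 1 higher and 1 lower, and 2 higher). The summed linear level of the fibroblast markers was between 565 and 640 with doxycycline and between 519 and 552 without, and its part in the results was not tested. Of the 8 general epithelial markers measured, 6 lay below 0 with a median of -0.046, and their summed level was between 27.9 and 28.1 with doxycycline and between 31.0 and 34.5 without. Of 13 medullary thymic markers 8 were measured, 7 of them in both groups, 5 above and 3 below 0 with a median of 0.11. Their summed level overlapped, at 30.9 to 35.9 with doxycycline and 33.8 to 39.3 without. Cldn4, a tight junction gene listed for both medullary thymic and general epithelium, rose (0.81 ± 0.12, adjusted p = 0.0354). No other member of these lists passed.

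Some properties of the arrays run along with the treatment. All 8 arrays lay on 1 slide and were scanned together, every treated array in row 1 and every untreated array in row 2, so that the place on the slide and the treatment cannot be told apart. On the β arrays 43427 and 44600 probes were well above background with doxycycline and 40770 and 40771 without, and the background noise recorded by the scanner software was 4.53 and 4.29 against 8.57 and 8.12. One array stood apart, an untreated δ array (replicate 1), on which 77 of 1008 tiles of 8 by 8 spots deviated by over 0.3 log2. Its spots in these tiles, 7.58% of the array, were left out. The array gives no level to the β line but enters the spread, and with those spots kept 56 genes passed in place of 407.

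The proximal promoters of Fos, Kdr and P2rx7 are shown because Fos and Kdr are reported TFII-I targets that rose together and P2rx7 is among the strongest falls. Each is the stretch of 250 bases before the gene's first listed start, from RefSeq (GRCm38.p6), 5′ to 3′ on the strand of the gene. Fos lies at chr12:85473640-85473889 (plus strand), Kdr at chr5:75978456-75978705 (minus strand) and P2rx7 at chr5:122643677-122643926 (plus strand), the first of 2 starts listed for it. Capitals mark the motif found.
Fos: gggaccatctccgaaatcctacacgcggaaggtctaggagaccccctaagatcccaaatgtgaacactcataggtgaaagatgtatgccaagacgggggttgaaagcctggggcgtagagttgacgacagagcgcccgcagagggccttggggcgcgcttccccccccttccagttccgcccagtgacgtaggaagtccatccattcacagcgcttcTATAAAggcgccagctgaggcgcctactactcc
Kdr: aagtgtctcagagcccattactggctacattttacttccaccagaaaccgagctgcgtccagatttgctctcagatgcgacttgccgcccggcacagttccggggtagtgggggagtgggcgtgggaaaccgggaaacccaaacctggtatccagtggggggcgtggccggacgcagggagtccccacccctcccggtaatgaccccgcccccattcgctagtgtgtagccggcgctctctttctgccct
P2rx7: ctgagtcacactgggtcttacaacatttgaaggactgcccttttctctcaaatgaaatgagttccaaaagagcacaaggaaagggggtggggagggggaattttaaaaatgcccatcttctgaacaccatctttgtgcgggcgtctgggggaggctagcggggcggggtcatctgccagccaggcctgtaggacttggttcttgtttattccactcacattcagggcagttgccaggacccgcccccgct
A search of both strands for the E-box CACGTG, the TATA box TATAAA and the CCAAT box CCAAT, which do not overlap one another, found 1 match in these stretches, the TATA box of Fos that begins 33 bases before the start (position -33). In windows of 300 bases around the start, which 14644 of the tested genes had, CACGTG was present for 8.75%, TATAAA for 11% and CCAAT for 38.8%. Among 170 genes that rose the shares were 5.88%, 12.4% and 38.8%, and among 135 that fell 9.63%, 11.1% and 42.2%. These are descriptions of letters in a window, and no test was made of them. The initiator element and E-boxes other than CACGTG were not searched for, so their presence in these stretches is not known here.

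Of the 18538 genes, 407 passed (2.20%), 230 higher (1.24%) and 177 lower (0.955%) with doxycycline. At an unadjusted p under 0.05 there were 3905 (21.1%). Changes over 2-fold were found for 56 of the rises and 35 of the falls, and the median log2 fold change of all genes was 0.03. Of all genes 55.0% had values above 0 and 45.0% below 0, which is the background for the counts of list members given below. Counts of members that passed stand against 1.24% higher and 0.955% lower. At an unadjusted p under 0.05 these shares of all genes were 11.5% and 9.56%. The rises came mainly from dim genes. With genes split by mean level into 4 bins of equal size, 94 rose and 20 fell in the dimmest bin, 73 rose and 62 fell in the next, 37 rose and 71 fell in the one after, and 26 rose and 24 fell in the brightest. Among genes measured in both groups the calls were nearly even, with 185 higher and 176 lower. Genes above background only with doxycycline (556) entered through that group, so their direction is no result. More probes were above background and the noise was lower with doxycycline, and the part of both in this split was not tested. The count depended on 5 of the 8 arrays: it was 5 and 4 without treated β replicates 1 and 2, and 12 without either treated δ array. It was 59 without untreated β replicate 1, but 328 without untreated β replicate 2 and 326 without either untreated δ array. After median centring of the arrays 140 genes passed, 42.9% of them higher, against 56.5% as reported.

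**Figure D1:**
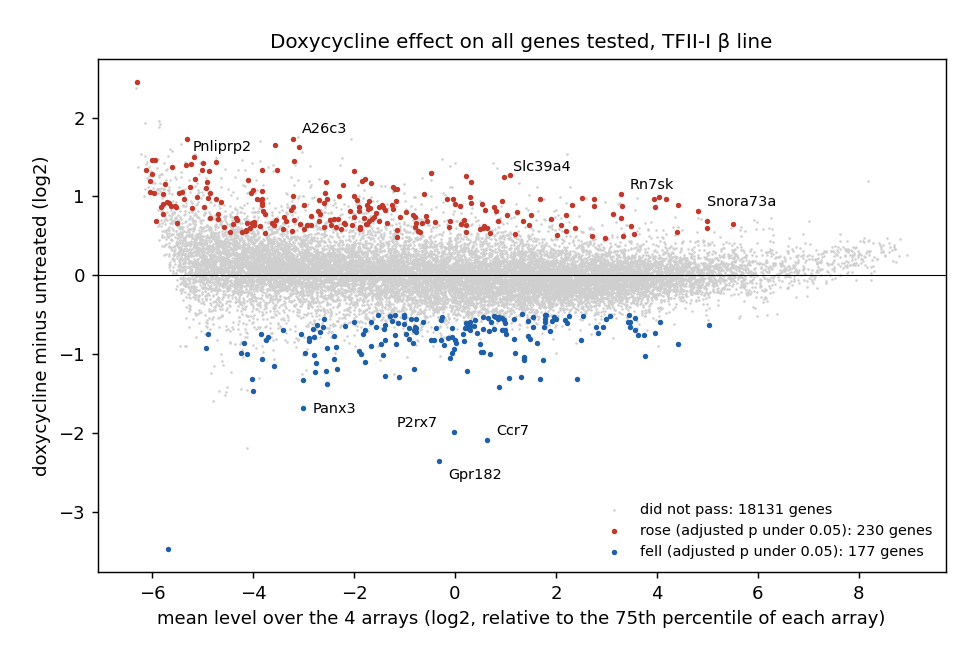
Log2 fold change with doxycycline in the β line (vertical axis) against the mean log2 level over its 4 arrays (horizontal axis), 1 point a gene. The 230 genes that rose are red and the 177 that fell are blue; Gpr182, Ccr7 and P2rx7 lie below the rest of the well measured genes, and the rises gather at low levels.

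The gene whose mutant the labels name as overexpressed, Gtf2i, was read by 3 probes above background. Its brightest, A_55_P2073467, read 4.58 and 4.65 with doxycycline and 4.39 and 4.63 without, so the difference was small against the spread (0.11 ± 0.11, adjusted p = 0.657). A second probe, A_52_P442585, read -0.11 and -0.15 against -0.22 and -0.32. The third and dimmest, A_55_P2040907, read -1.05 and -1.02 with doxycycline and -2.13 and -2.56 without, and both treated arrays lay above both untreated ones. Its difference of 1.31 ± 0.17 passed in a fit of all 26461 probes (adjusted p = 0.0267), where 571 probes passed. In the δ line that probe differed by 0.18. It read 1.15 after normexp background correction (adjusted p = 0.0134) and between 1.10 and 1.52 with a β array left out. It did not pass without either treated β array (0.103 and 0.158), without either treated δ array (0.0557), with the defective spots kept (0.0566), in a fit of the 4 β arrays (0.0606) or with a replicate block (0.0581). Which part of the transcript each probe reads, and whether it reads the mutant, is not known here. The paralogs Gtf2ird1 (0.16 ± 0.11, adjusted p = 0.445) and Gtf2ird2 (-0.19 ± 0.14, adjusted p = 0.489) did not pass.

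Reported targets of TFII-I divided. The growth response gene Fos read 0.32 and 0.33 with doxycycline and -0.66 and -0.62 without, so that it rose 1.95-fold (0.96 ± 0.14, adjusted p = 0.0328). Kdr, which encodes VEGF receptor 2 and carries an initiator element in its promoter, read 0.72 and 0.83 against -0.20 and -0.09 and rose 1.90-fold (0.92 ± 0.10, adjusted p = 0.0193). In both genes the replicates differed by little and the groups did not overlap. The δ line had values of the same sign, 0.94 for Fos (adjusted p = 0.0568) and 0.64 for Kdr (adjusted p = 0.0628), and neither passed there. The difference between the lines was 0.02 for Fos and 0.29 for Kdr and passed for neither gene. The other members of this list of 5 did not pass: the cyclin gene Ccnd1 had a log2 fold change of -0.29, the chaperone gene Hspa5 0.21 and the homeobox gene Gsc -0.11. Among 17 immediate early genes 14 had values above 0, against 55.0% of all genes, and Fos alone rose. Egr1, a zinc finger factor induced with Fos, read -0.33 and -0.53 against -1.62 and -1.55, with 1.15 ± 0.23 and an adjusted p = 0.0566. The FOS family gene Fosl1 had the opposite sign (-0.56 ± 0.13, adjusted p = 0.0679). Among 10 VEGF ligands and receptors Kdr alone rose, and Vegfa had a value of -0.37 (adjusted p = 0.125), while its other probes gave -0.53, 0.13 and 0.56. Kdr is also an endothelial marker. Of 10 such markers 8 were measured, 3 above and 5 below 0 with a median of -0.04. Kdr was the 1 that rose and Mmrn1, described below, the 1 that fell. Of the defining markers of that cell type Tie1 and Emcn were not measured, while Cldn5 read -3.69 and -4.09 without doxycycline.

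The strongest falls were receptors at the cell surface. Ccr7, the receptor for the chemokines Ccl19 and Ccl21, read -0.32 and -0.49 with doxycycline and 1.58 and 1.79 without, a fall of 4.26-fold (-2.09 ± 0.11, adjusted p = 0.00289). P2rx7, a cation channel opened by extracellular ATP, read -0.91 and -1.11 against 0.98 and 0.98, a fall of 3.96-fold (-1.99 ± 0.10, adjusted p = 0.00289). Gpr182, a receptor that binds chemokines without classical signalling, read -1.21 and -1.78 against 0.70 and 1.02, the largest fall among genes measured in both groups at 5.11-fold (-2.35 ± 0.20, adjusted p = 0.0135). The groups lay far apart in all 3 genes. Both probes of Ccr7 (-2.48 and -2.09) and all 3 of P2rx7 (-2.03, -1.99 and -2.02) passed in the fit of probes. These last 2 genes were the only ones of 89 named and called genes that passed with each of the 8 arrays left out in turn, with values of Ccr7 between -2.20 and -1.98 and of P2rx7 between -2.09 and -1.89 over the β arrays. Gpr182 failed in 1 of the 8.

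In the families of these receptors few other measured members passed. Medians and counts include members that entered the test through 1 group, whose direction is no result. Of 24 chemokine receptors 15 were measured, 12 of them in both groups, and the median was 0.18 with 10 above 0. Ccr7 and Gpr182 were the 2 that fell, against 0.955% of all genes, and none rose by limma (4 higher at an unadjusted p under 0.05). Of 24 purinergic receptors and pannexins 17 were measured, 15 of them in both groups, with a median of 0.10 and 11 above 0. Here P2rx7 fell together with Panx3, a pannexin channel gene, which read -3.85 and -3.84 against -2.09 and -2.24 (3.21-fold, -1.68 ± 0.13, adjusted p = 0.0124, but -1.04 after normexp). Chemokine ligands lay lower, with 10 of 14 measured genes below 0 and a median of -0.26. Among them Cxcl1, which attracts neutrophils, fell from 1.13 and 0.97 to 0.14 and 0.02 (-0.97 ± 0.10, adjusted p = 0.0206). Ccl7 (-0.74, adjusted p = 0.0561) and Ccl2 (-0.51, adjusted p = 0.0596) had values of the same sign. Of 16 cytokine genes 11 were measured, and Il6, which encodes an inflammatory cytokine that thymic epithelium secretes, was the 1 that passed. It read -2.40 and -2.28 with doxycycline and -1.22 and -1.26 without, a fall of 2.14-fold (-1.10 ± 0.10, adjusted p = 0.017), with both of its probes below 0 (-1.10 and -1.20).

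Other falls over 2-fold covered varied functions. Mmrn1, a matrix glycoprotein of platelets and endothelium, fell 2.76-fold from a low level (-3.20 and -3.37 without, -4.86 and -4.63 with doxycycline), but by 0.56 after normexp. Nmur2, a neuromedin U receptor, read 0.10 and 0.24 against 1.46 and 1.72 (-1.42 ± 0.13, adjusted p = 0.0209). The focal adhesion gene Tns4, a tensin, was among the brighter falls, with 0.91 and 1.13 against 2.18 and 2.49 (-1.32 ± 0.15, adjusted p = 0.0223), and both probes passed at -1.32 and -1.33. Values of the homeobox gene Shox2 (-1.38), Klhl30 (-1.31), the kinase gene Sbk3 (-1.29), the vitamin B12 transporter gene Abcd4 (-1.28), Tex33 (-1.23) and the guanylate cyclase subunit Gucy1a1 (-1.21) followed, with adjusted p between 0.0135 and 0.0337. The meiotic recombination gene Spo11 (-1.32, but -0.51 after normexp) and the transcribed pseudogene Speer6-ps1 (-1.33, but -0.88 after normexp) also fell. Gm7030, a numbered locus, was above background only without doxycycline. It entered through that group, so its direction is no result, and its fold has a lower bound of 3.44 (adjusted p = 0.041). After normexp its log2 fold change was -0.82 (adjusted p = 0.0582), and it passed with none of the 8 arrays left out.

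Of 11 cornified layer and Padi genes 9 were measured, 6 below and 3 above 0 with a median of -0.16. Against 0.955% of all genes, 2 fell. Their summed linear level overlapped between the groups, at 6.89 to 8.20 with doxycycline and 8.07 to 8.76 without. Padi3, which converts arginine to citrulline in hair and skin proteins, read -0.28 and -0.46 with doxycycline and 0.74 and 0.94 without, a fall of 2.32-fold (-1.21 ± 0.12, adjusted p = 0.0176). The cornified envelope gene Ivl fell from -3.46 and -3.78 to -4.44 and -4.78 (-0.99 ± 0.17, adjusted p = 0.041), near the dimmest signals and by 0.34 after normexp. Among 11 measured keratins 1 passed, Krt20, a keratin of gastrointestinal and urothelial cells, which rose (-3.52 and -3.23 against -4.26 and -4.40, 0.96 ± 0.14, adjusted p = 0.0346). Krt19 had a value of -0.98 (adjusted p = 0.0596), and the bright keratin genes Krt8 and Krt14 had values of -0.07 and -0.16.

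**Figure D2:**
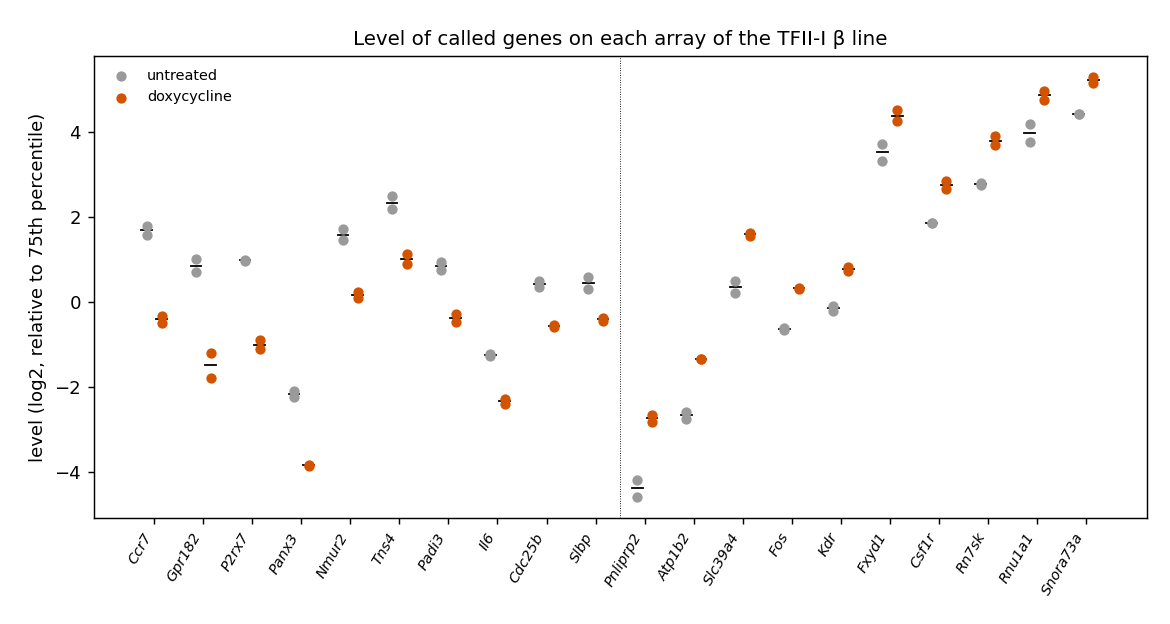
Log2 level of 20 genes that passed on each of the 4 arrays of the β line, with untreated arrays in grey and doxycycline arrays in orange; short lines are group means. Left of the dotted line are 10 genes that fell and right of it 10 that rose, and in each the 2 treated points lie on 1 side of the 2 untreated ones; levels of different genes come from different probes and are not comparable.

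Several of the largest rises were in dim genes. Pnliprp2, a pancreatic lipase-related enzyme, read -2.65 and -2.83 with doxycycline and -4.59 and -4.18 without (3.13-fold, 1.65 ± 0.18, adjusted p = 0.0209), with a value of 1.0 after normexp. A26c3, an ankyrin-repeat gene, rose 3.32-fold (1.73 ± 0.27, adjusted p = 0.0358) and the long non-coding RNA Lncbate3 2.74-fold (1.45 ± 0.20, adjusted p = 0.0326), both from a low level. The olfactory receptor gene Olfr1500 rose 3.09-fold. Krtap4-1, a hair keratin-associated protein (1.30), the adhesion gene Flrt1 (1.26), the integrin ligand Npnt (1.22), the itaconate-producing enzyme Acod1 (1.21) and the phosphatase inhibitor Ppp1r1c (1.20) rose too. So did Igdcc4 (1.18), the G protein subunit Gng13 (1.13) and the FGF carrier Fgfbp1 (1.10), with adjusted p between 0.0193 and 0.0423 for these 8 genes. Ppp1r1c had a value of 0.36 as a mean over its probes, and Acod1 0.75 after normexp.

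Genes seen above background only with doxycycline entered the test through that group, so their direction is no result. They have a lower bound in place of a fold. The bound was 2.40-fold for Cd209f, a C-type lectin (adjusted p = 0.0223), and 2.10-fold for Ifitm1, an interferon-induced membrane protein (adjusted p = 0.0124). For the liver transcription factor Creb3l3 it was 2.00-fold (adjusted p = 0.0353). For the clone 2310002D06Rik and the estrogen receptor Gper1 the bounds were 1.93-fold and 1.91-fold. These bounds hold for the signal as deposited: after normexp the log2 fold changes were 0.77, 0.68, 0.70, 0.51 and 0.59 in the same order, below every bound, and 2310002D06Rik no longer passed (adjusted p = 0.0582). Ifitm1 was the 1 member of 22 measured interferon-stimulated genes that passed, and the list had 13 above 0 and a median of 0.08.

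Transporters of ions and metals included several rises. Atp1b2, a β subunit of the sodium pump, read -1.35 and -1.33 with doxycycline and -2.75 and -2.58 without, 2.50-fold higher (1.32 ± 0.10, adjusted p = 0.0118), while its relative Atp1b1 had a value of 0.12. Fxyd1, phospholemman, which regulates the pump, was a bright gene at 4.26 and 4.53 against 3.32 and 3.73 (0.87 ± 0.16, adjusted p = 0.0463). These were the 2 of 13 measured genes of the pump that passed, both higher, against 1.24% of all genes. The zinc importer Slc39a4 read 1.63 and 1.56 against 0.21 and 0.49, 2.38-fold higher (1.25 ± 0.12, adjusted p = 0.017), and Slc39a8, which also imports manganese, rose as well (0.65 ± 0.11, adjusted p = 0.0408). Of the 23 measured genes of zinc transport no other passed, and their median was 0.01. At an unadjusted p under 0.05 the list had 4 higher and 4 lower.

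RNA genes that work without being translated stood out among the rises. The classes were chosen after the values were seen, so they are described with no test of the group. RefSeq names 29 tested genes in the classes of small nuclear, small nucleolar, guide, RNase P and MRP, small cytoplasmic, telomerase and ribosomal RNA. Many such RNAs splice, modify or process other RNAs or form part of the ribosome. Of the 29 genes 28 had values above 0, against 55.0% of all genes, and 11 rose, against 1.24%. None fell by limma, and on 22 both treated arrays lay above both untreated ones, against 26.3% of all genes. Their median was 0.82, beside 0.02 for the 16798 protein-coding genes and 0.10 for the 1498 long non-coding RNAs. The median lay between 0.68 and 0.85 over all 20 alternative settings, but 0 of them passed with any treated array left out, without untreated β replicate 1, without a filter on dim probes, with a replicate block or in a fit of the 4 β arrays alone, and 1 passed with the defective spots kept.

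Most small nuclear RNAs of the spliceosome rose. The U1 genes Rnu1a1, Rnu1b1 and Rnu1b6 rose by 0.89, 0.99 and 0.97, with Rnu1a1 at 4.97 and 4.76 against 3.76 and 4.18 (adjusted p = 0.0432). These copies are nearly the same in sequence, so that their separate values are uncertain. The dimmer U2 gene Rnu2-10 rose by 1.03 (adjusted p = 0.0271). Rn7sk, the 7SK RNA that holds the elongation kinase P-TEFb inactive, read 3.69 and 3.90 against 2.75 and 2.79 and rose 2.04-fold (1.03 ± 0.12, adjusted p = 0.0271). None of the 8 genes for the protein partners of this RNA passed. In 3 of them both treated arrays lay below both untreated ones, against 20.8% of all genes. Hexim1, which inhibits P-TEFb with the 7SK RNA, had a value of -0.38 (adjusted p = 0.328). Rnu12, the U12 RNA of the minor spliceosome, read 4.28 and 4.55 against 4.22 and 4.58 and showed no difference beyond its spread (0.02 ± 0.15).

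Nucleolar RNAs rose in 5 of 11 genes, against 1.24% of all genes. Snora73a, which takes part in ribosomal RNA processing, read 5.30 and 5.17 with doxycycline against 4.42 and 4.42 without (0.81 ± 0.12, adjusted p = 0.0346). The others were Snora34 (1.27), Snord17 (0.88), Snora47 (0.71) and Snora74a (0.61). Snora81, whose adjusted p was 0.132, had a value of 1.0, and Snord7, Snord33 and Snora78 had values of 0.19, 0.18 and 0.16. Of the RNase P RNA genes Rprl3 rose (1.01 ± 0.14, adjusted p = 0.0326), while Rpph1 and Rprl2 had values of 1.02 and 1.0 with an adjusted p = 0.0631 each, and such related copies may share a probe's signal. Rn28s1, the 28S ribosomal RNA, read 8.64 and 8.95 against 7.31 and 7.88, a difference of 1.19 ± 0.27 with an adjusted p = 0.0719. Values near or below 0 came from Terc (0.06), Rn4.5s (0.10) and Scarna13 (-0.64 ± 0.49, with the untreated arrays at -1.43 and -2.90). In the δ line the same 29 genes had a median of 0.30 with 25 above 0.

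**Figure D3:**
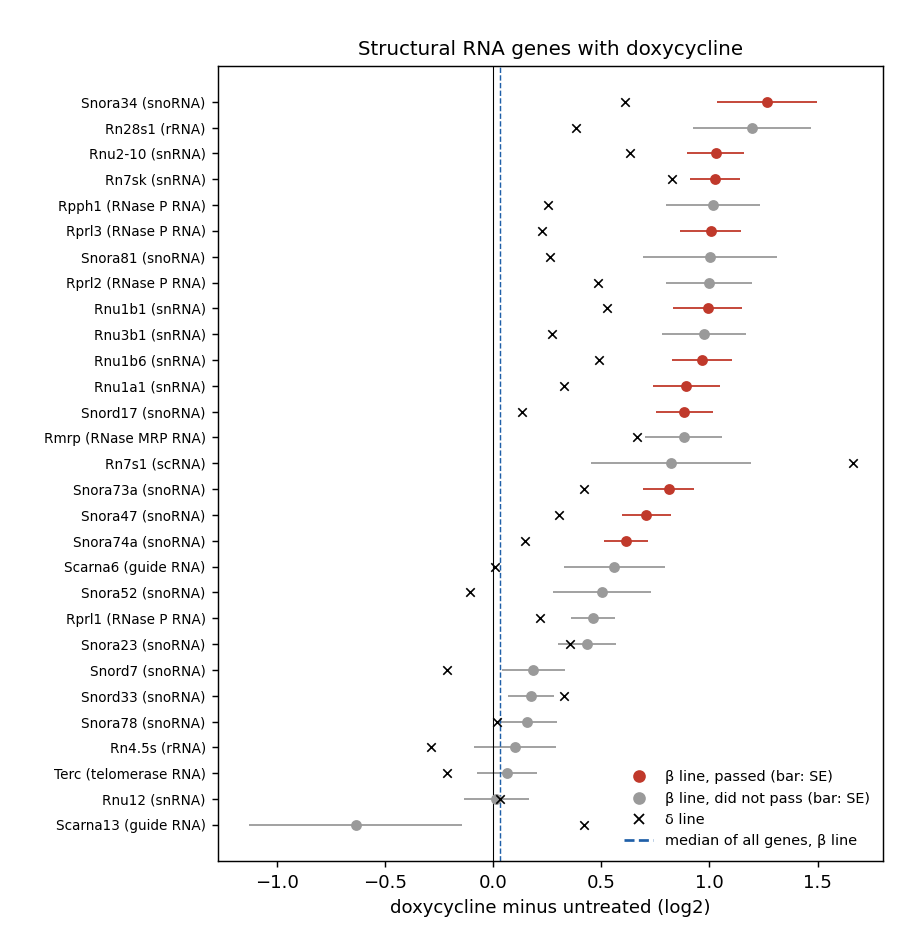
Log2 fold change with doxycycline of the 29 RNA genes (horizontal axis, 1 row a gene with its RefSeq class). Circles with standard error bars are the β line, red where the gene passed, crosses are the δ line, and the dashed line marks the median of all genes in the β line (0.03); all but Scarna13 lie right of 0 in the β line.

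Histone genes shifted in the same direction. Replication-dependent histones, which package new DNA and whose messages end in a stem-loop in place of a poly(A) tail, had 33 of 48 genes measured. Of these 31 lay above 0, against 55.0% of all genes, and the median was 0.48. Against 1.24% of all genes, 3 rose: H1f3 (1.16 and 1.24 against 0.58 and 0.44), H4c3 (1.28 and 1.54 against 0.60 and 0.68) and H2bc4 (1.08 and 1.35 against 0.28 and 0.52). Their log2 fold changes were 0.69, 0.77 and 0.82, with adjusted p between 0.0328 and 0.0391. Histone copies are near-identical, so a probe may read several. Slbp, the protein that binds that stem-loop, went the other way, from 0.58 and 0.31 to -0.38 and -0.44 (-0.85 ± 0.12, adjusted p = 0.0328), with its second probe at -0.61. The median of the histones was 0.31 without treated β replicate 2 and 0.63 without replicate 1.

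Genes of the cell cycle lay lower. Of 41 genes of G2/M and mitosis 33 were below 0, against 45.0% of all genes, with a median of -0.20. Here 3 fell: Cdc25b, a phosphatase that activates the mitotic kinase, read -0.54 and -0.58 against 0.50 and 0.35 (-0.98 ± 0.10, adjusted p = 0.0188), Aurkb, a kinase of chromosome segregation, read 1.53 and 1.52 against 2.23 and 2.23 (-0.70 ± 0.12, adjusted p = 0.0397), and Hmmr, a spindle protein, 2.51 and 2.42 against 3.19 and 3.05 (-0.65 ± 0.10, adjusted p = 0.0353). The 2 further probes of Hmmr had values of 0.52 and 0.34, and the second probes of Cdc25b and Aurkb had -0.44 and -0.26. None of the list rose by limma, and the 3 falls stand against 0.955% of all genes. At an unadjusted p under 0.05 there were 0 higher and 15 lower, where 11.5% and 9.56% of all genes lie. Without untreated β replicate 2 the median was -0.09. Of 44 measured genes of G1/S and DNA replication 31 were below 0 (median -0.11), and Slbp alone fell. Cdc45, part of the replicative helicase, had a value of -0.46 (adjusted p = 0.0505).

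Cholesterol synthesis had 24 of 26 measured genes below 0, against 45.0% of all genes, and a median of -0.24. In 18 of the 26 both treated arrays lay below both untreated ones, against 20.8% of all genes. Among the enzymes (18 of 19 below 0) Nsdhl fell, from 0.74 and 0.87 to 0.18 and -0.02 (-0.73 ± 0.13, adjusted p = 0.0455). Fdps, which makes farnesyl pyrophosphate, read 3.19 and 3.36 against 3.79 and 4.11 (-0.67 ± 0.13, adjusted p = 0.0562). Of the regulators and uptake genes 6 of 7 were below 0 and none passed limma (2 lower at an unadjusted p under 0.05). The list median was -0.36 without untreated β replicate 1 and -0.18 without replicate 2.

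Several other lists of metabolism and growth held 1 fall. In glycolysis and lactate (17 of 26 below 0, median -0.07) Pfkfb4, which sets the level of a glycolytic activator, fell (-0.69 ± 0.13, adjusted p = 0.0469), and the hexokinase Hk2 had a value of -0.73 (adjusted p = 0.0562). In glutamine and nucleotide synthesis (18 of 26 below 0, median -0.11, but 0.03 without untreated β replicate 2) the pyrimidine enzyme Dhodh fell (-0.53 ± 0.09, adjusted p = 0.0415). Among MYC and ribosome biogenesis genes (26 of 32 below 0, median -0.13) the ribosome assembly gene Tsr1 fell (-0.59 ± 0.09, adjusted p = 0.0376, but -0.32 as a mean over its probes). In the unfolded protein response (18 of 29 below 0, median -0.03) the secreted chaperone-like factor Manf fell from 4.31 and 4.40 to 3.78 and 3.75 (-0.59 ± 0.09, adjusted p = 0.0361). The proteasome had 22 of 31 below 0 with a median of -0.08 (0.03 without untreated β replicate 2) and no call by limma (2 lower at an unadjusted p under 0.05).

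Among lists in which no gene passed, several had medians above 0. The integrated stress response under ATF4 had 20 of 26 genes above 0 and a median of 0.20, with 0 that passed limma and 11 higher and 1 lower at an unadjusted p under 0.05, where 11.5% and 9.56% of all genes lie. Its phosphatase subunit Ppp1r15a read 1.57 and 1.51 against 0.93 and 1.15 (0.50 ± 0.11, adjusted p = 0.0671). Cytosolic ribosomal proteins had 66 of 72 above 0 and a median of 0.19, with 0 that passed limma and 20 higher at an unadjusted p under 0.05. That median was -0.02 after quantile normalization, so the direction of this list depends on the scaling. The respiratory chain had 35 of 49 above 0, a median of 0.10, and -0.04 without untreated β replicate 1, with 0 that passed limma and 4 higher at an unadjusted p under 0.05.

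**Figure D4:**
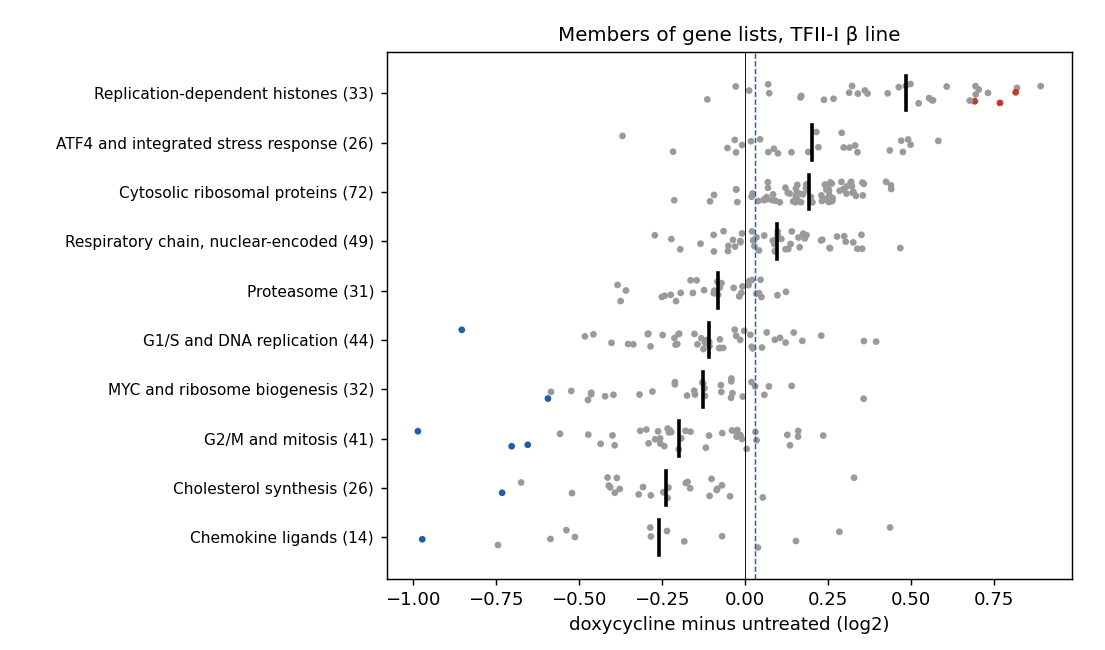
Log2 fold change with doxycycline in the β line of the measured members of 10 gene lists (number in brackets), 1 point a gene, spread vertically for legibility. Red genes rose and blue genes fell, black bars are list medians, and the dashed line is the median of all genes (0.03); histones have the highest median (0.48) and chemokine ligands the lowest (-0.26).

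Signalling lists mostly held single changes. In the TGF-β and BMP pathway the receptor Tgfbr1 fell (0.32 and 0.45 against 0.99 and 0.86, -0.54 ± 0.10, adjusted p = 0.049), but its mean over probes was -0.02. The ligand Wnt7b rose (1.59 and 1.67 against 0.71 and 0.95, 0.80 ± 0.12, adjusted p = 0.0395). Its second probe gave 0.44, the value also reached without probes in deviant tiles and where a probe had to pass on each of the 8 arrays, and there it did not pass (adjusted p = 0.0975 and 0.0763). In this list 14 of 20 measured WNT genes lay above 0, with 0.57 for the feedback gene Axin2 (adjusted p = 0.0684). Snai2, a repressor of epithelial genes, rose among 15 mesenchymal transition genes (0.58 ± 0.11, adjusted p = 0.0469), while its relative Snai1 had a value of -0.57 (adjusted p = 0.111). In the BCL2 family Bcl2l14 fell (-0.78 ± 0.14, adjusted p = 0.0456, or -0.35 after normexp). H2-Bl, a class I locus that RefSeq lists as a transcribed pseudogene, rose 2.00-fold (-2.70 and -2.72 against -3.72 and -3.71, 1.0 ± 0.10, adjusted p = 0.0188). It was the 1 gene that passed among 23 measured ones of antigen presentation. The Notch, FGF, EGF receptor, p53, collagen, prostaglandin and fatty acid lists and NRF2, heat shock and mitochondrial ribosome genes held no gene that passed limma, and at an unadjusted p under 0.05 each had between 0 and 4 genes in a direction.

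Some markers of immune cells rose as well. Of 15 thymocyte markers 11 were measured, 9 above 0 with a median of 0.37, which was 0.066 where a probe had to pass on each of the 8 arrays and 0.50 without treated β replicate 1. The summed linear level was between 91.2 and 109 with doxycycline and between 79.4 and 86.1 without. It includes the bright Cd247 probe given below. The sum without that probe was not computed, so no shift of the whole set is read from it. Cd8a, the T cell coreceptor, rose 2.24-fold (-0.98 and -1.20 against -2.40 and -2.11, 1.17 ± 0.21, adjusted p = 0.0469), its second probe had a value of 0.22, and the mean over both was 0.69 (adjusted p = 0.0756). Cd247, the ζ chain of the T cell receptor complex, rose by one probe (4.23 and 4.63 against 3.45 and 3.48, 0.96 ± 0.16, adjusted p = 0.049), and the other had -0.04. The defining genes Ptprc, Cd3g, Rag1 and Themis were not measured on these arrays. Among 13 macrophage and dendritic cell markers 8 were measured, 5 above and 3 below 0 with a median of 0.04. Their summed linear level was between 22.1 and 24.8 with doxycycline and between 18.2 and 21.2 without. It includes the Csf1r probe given next, and the sum without that probe was not computed. Csf1r, the receptor for macrophage growth factor, rose (2.66 and 2.85 against 1.87 and 1.86, 0.89 ± 0.14, adjusted p = 0.0358), with 0.15 for its second probe. Aif1, a calcium-binding protein of macrophages, had a value of -0.58 (adjusted p = 0.074) and lay lower on both treated arrays. Adgre1, Itgax, Mrc1, Fcgr1 and C1qa were not measured. In whole cultures, fewer cells of a type and less RNA per cell cannot be told apart.

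The comparison with the δ line showed the same direction for most calls. Of the 230 genes that rose in the β line 201 had the same sign in the δ line, and of the 177 that fell 171 did, where 61.1% of all genes had the same sign in both. The 230 include 40 genes above background only with doxycycline, whose direction is no result. They also include 5 above background in 1 group fully and on 1 array of the other. Signs, and the medians that follow, were not computed without these genes. The effects were smaller in the δ line, with medians of 0.37 and -0.38 against 0.82 and -0.73, but the genes were chosen by their β values, which makes these larger. In the δ line 53 genes passed (0.286%), among them 10 of the β rises and 23 of the β falls. The genes tested were those above background in a β group, so genes above background only in the δ line are not counted. For 1440 genes the δ value rests on 1 untreated array. The number of calls in the 2 lines is therefore not comparable. The lines share no array, though all 8 lie on the same slide in the same row arrangement. Ccr7 (-1.58), P2rx7 (-1.41), Gpr182 (-1.74), Panx3 (-1.30) and Padi3 (-1.33) passed in the δ line, as did Atp1b2 (0.89) and Krt20 (1.52).

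No gene passed the test of the difference between the lines in limma, out of 17098 that could be tested, with 1656 (9.69%) at an unadjusted p under 0.05. Without untreated δ replicate 2 there were 176 and without untreated δ replicate 1 there were 18. The lowest adjusted p was 0.0948, for Cd209f, which entered the test through the treated β arrays. It read -4.07 and -3.97 against -5.30 and -5.61 in the β line and had a value of -1.41 in the δ line. Tmprss2, a serine protease gene near the dimmest signals, had 0.68 in the β line and -0.82 in the δ line (adjusted p of the difference 0.133), but -0.45 in the β line without a filter on dim probes. The following genes were chosen after their values were seen. Spo11 had -1.32 against 0.18, Olfr282 1.06 against -0.38, Csf1r 0.89 against -0.01, and Lrp2, an endocytic receptor, -0.66 against 0.28 (-0.41 in the β line as a mean over probes). None of these differences passed (adjusted p between 0.39 and 0.513).

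**Figure D5:**
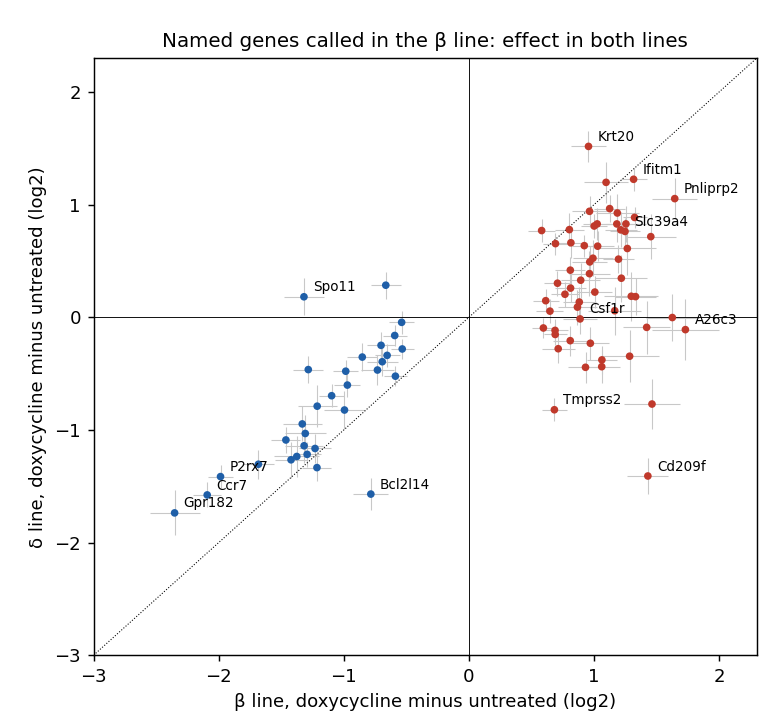
Log2 fold change with doxycycline in the δ line (vertical axis) against the β line (horizontal axis) for 88 named genes that passed in the β line, with standard errors; Gm7030 is outside the range shown. Genes that rose in the β line are red and those that fell blue, and the dotted line marks equal effects; most lie in the lower left and upper right fields with Cd209f and Tmprss2 in the opposite field.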

How the data were processed

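RNA of the 8 samples was labelled with Cy3 (200 ng of total RNA each) and hybridised to one-colour Agilent mouse arrays. Per the file headers, the authors extracted linear spot intensity values with Agilent Feature Extraction 11.5.1.1. The deposited intensity is background-subtracted and spatially detrended, with no normalization between arrays. The multiplicative part of that detrending had a recorded size of 0.0811 and 0 on the treated β arrays and of 0.0709 and 0.0671 on the untreated ones.

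Control and outlier spots were left out, spots of a probe were averaged, and log2 intensity was taken relative to each array's 75th percentile. A probe was named through its RefSeq accession (GRCm38.p6): 32989 of 56605 probes matched and 23616 did not, and 98 probes lacked an unflagged spot on some array. Probes well above background on both arrays of a β group were kept (26461), and each gene took its brightest. Across genes, replicates correlated at 0.996 with and 0.994 without doxycycline, and their difference had a scaled median absolute deviation of 0.218 and 0.249. No spot was saturated. A model with a mean for each of the 4 groups was fitted to the 8 arrays (limma 3.58.1 in R 4.3.3, lmFit and eBayes, Benjamini-Hochberg, threshold 0.05). The number of arrays limits the precision. For 1440 genes the defective δ array had no value, and these have no test of the difference between lines; their δ value rests on 1 untreated array (Rn7sk is such a gene).

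Where a gene was not well above background on either array of a group, its fold is a bound, from the brighter mean against the mean of, per array, the lowest signal that was well above background or the probe's own signal, whichever was higher. Of 123 called genes with several kept probes, 86 had all probes of 1 sign.

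Named genes are Gtf2i and its paralogs, the 16 largest rises and 16 largest falls measured on all 4 arrays without overlap (without numbered loci and further olfactory receptors), at most 5 genes with a bound in each direction, and out of 47 lists (1041 genes) at most 4 called members per direction each or, where fewer than 2 passed, the 2 next by p. Some are not reported singly. Structural RNA genes and genes opposite in the lines were added after their values were seen. The members and lists were chosen with earlier results of these data known. Alternatives were normexp on median signals (offset 50; mean signals were not used here), signal before multiplicative detrending, other scalings, probe filters and summaries, a replicate block, an intensity trend and each array left out. The fits were tested on simulated data.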

Additional observations from a re-analysis of the deposited data

Results flagged for a closer look

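Probes without a gene name here also carried a signal of doxycycline in the β line. In a limma fit over 42910 probes, named or not, 43 of 16449 unnamed probes passed (0.261%), beside 94 of 26461 named ones (0.355%). When the 26461 named probes were fitted alone 571 passed, so these counts depend strongly on which probes are fitted together. Of the 43, 22 were higher and 21 lower with doxycycline, and 25 were measured in both groups, 6 higher and 19 lower. They were outside every comparison of the report because no gene could be given for them.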

How the results depend on the processing

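The 407 genes that passed in the β line became 251 with the signal before multiplicative detrending, 140 after median centring, 56 with the defective spots kept, 41 where dim probes were not filtered, and 714 where a probe had to pass on each of the 8 arrays. There were 64 in a fit of the 4 β arrays (68.8% higher), 186 as means over probes and 896 with an intensity trend, and the cause was not tested. Leaving out 1 array gave between 4 and 328. Counts after normexp (571), after quantile normalization (453) and without probes in deviant tiles (419) stayed within 1.5 times. The share of higher calls was 39.3% with the defective spots kept. With the replicate number as a block 33 genes passed; the numbers come from accession order, the deviations of same-numbered β arrays correlated at 0.0553 over 2 pairs, and they share only a number. For the difference between lines, 0 genes became 1 after median centring, 4 without a filter and 1 as means over probes, and between 0 and 176 with 1 array left out; it cannot be fitted from the β arrays alone. Of the 89 named genes that passed, 86 kept their sign in every alternative that could be run for them and 12 passed in every alternative run for them that leaves out no array (12 each, 11 for Ifitm1). With an array left out between 2 and 77 of them passed. Signs turned for Gtf2i, as the gene and as its brightest probe, which ranged from -0.015 (without untreated β replicate 1) to 0.23 with an array left out, Hmmr as a mean over probes (0.068), Cd247 without probes in deviant tiles and where a probe had to pass on each array (-0.036 in both) and Tmprss2 without a filter (-0.45). Genes near background, with 2 arrays a group, are the limit of these data: a missed threshold does not show that a gene did not change.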
